A study of Mus musculus with 8 samples.

Results

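The expression of 10 genes of microbial sensing was examined in mouse bone marrow-derived dendritic cells (BMDCs) in which microtubules had been destabilized. The genes were *Cd14*, *Ly96*, *Tlr1*, *Tlr2*, *Tlr4*, *Tlr6*, *Tlr7*, *Tlr9*, *Tlr13* and *Myd88*, found by their symbols among the 23356 genes of the table, and each was present as a single row. RNA-seq was performed on 8 libraries, 2 in each of 4 groups, from BMDCs grown for 6 days in GM-CSF and IL-4 from C57BL/6N mice. The groups were WT DCs left untreated (WT NT in the labels, control here), WT DCs kept for 5 h with ansamitocin-P3 at 100 nM (WT AP3), and control and treated DCs from mice that lack GEF-H1 (Arhgef2-KO NT and Arhgef2-KO AP3, called GEF-H1-/- here). Ansamitocin-P3 is a maytansinoid that binds tubulin and destabilizes microtubules, and GEF-H1, the product of *Arhgef2*, is a guanine nucleotide exchange factor held on microtubules. The knockout is a germline allele, so every cell of the culture carries it, and the mice were 8 to 16 weeks old. The comparisons ask which of the receptors changed with the drug, and whether the change was as large in DCs without GEF-H1.

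The values are FPKM, read fragments scaled to transcript length and library size, and each gene has a single value for a group, since Cuffdiff had merged the group's libraries. No value of a single library was used here, so there is no SD, no n and no p-value, and no difference was tested against the spread between duplicates. The error given with each FPKM is the 95% interval that Cuffdiff wrote beside it. A difference is on the log2(FPKM + 1) scale, with an interval propagated from those bounds, and was called when it was over 1 or under -1. Intervals that do not overlap between groups are called apart and are given as a second, looser description. Of the 10 genes, 9 reached 1 FPKM in at least 1 group and passed the filter together with 11397 genes in all, and *Tlr1* did not.

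Toll-like receptors (TLRs) are membrane proteins whose leucine-rich outer part binds microbial molecules and whose inner TIR domain recruits adaptors. TLR4 senses bacterial lipopolysaccharide (LPS) at the cell surface together with MD-2, the product of *Ly96*. CD14, anchored in the membrane by a lipid, hands LPS to that complex. TLR2 pairs with TLR1 or TLR6 to sense lipopeptides, while TLR7, TLR9 and TLR13 sense RNA or DNA inside endosomes, and MyD88 is the adaptor that nearly all TLRs use to activate NF-kappaB and AP-1. DCs carry these receptors to detect infection and mature.

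*Arhgef2* checked the labels of the groups. It stood at 42.3 FPKM in control and 45.9 FPKM in treated WT DCs, and at 4.59 and 4.16 FPKM in control and treated GEF-H1-/- DCs, which is 10.9% and 9.07% of WT. The labelled cell type was checked against DC markers, and 7 of 7 (among them *Itgax*, *H2-Ab1*, *Cd74* and *Zbtb46*) were at 1 FPKM or more in at least 1 group, with a summed level of 3958 to 6316 FPKM. Most of this sum is *Cd74*, at 3073 to 4935 FPKM. With the drug in WT DCs, *Flt3* (from 2.10 to 1.07 FPKM) and *Cd209a* (from 1.81 to 0.808 FPKM) were apart downward and *Ccr7* upward. Markers of other cells were present as well. Summed levels in the order control WT, treated WT, control GEF-H1-/- and treated GEF-H1-/- were 108, 74.6, 142 and 123 FPKM for 5 macrophage genes, and 612, 526, 435 and 377 FPKM for 3 monocyte genes. Within the macrophage list only *C1qa* passed the threshold between controls of the genotypes, at 4.22 FPKM in WT and 29.2 FPKM in GEF-H1-/- DCs, and the median log2 difference of the 5 genes was 0.10. *Mertk*, of the same list, fell by 1.86 on the log2 scale with the drug in WT DCs. In the same order of groups, 5 neutrophil genes summed to 30316, 35748, 20984 and 21446 FPKM. Most of this sum is *S100a8* and *S100a9*, and the FPKM of *S100a8* lies outside its own interval in all 4 groups. The neutrophil genes did not move one way, since between controls *Camp* was lower in GEF-H1-/- DCs (189.3 and 15.0 FPKM) and *Mpo* higher (26.4 and 63.1 FPKM). All of these cells can express TLRs. Their part in the results was not tested, and in bulk RNA fewer cells of a type and less RNA per cell cannot be told apart.

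**Figure D1:**
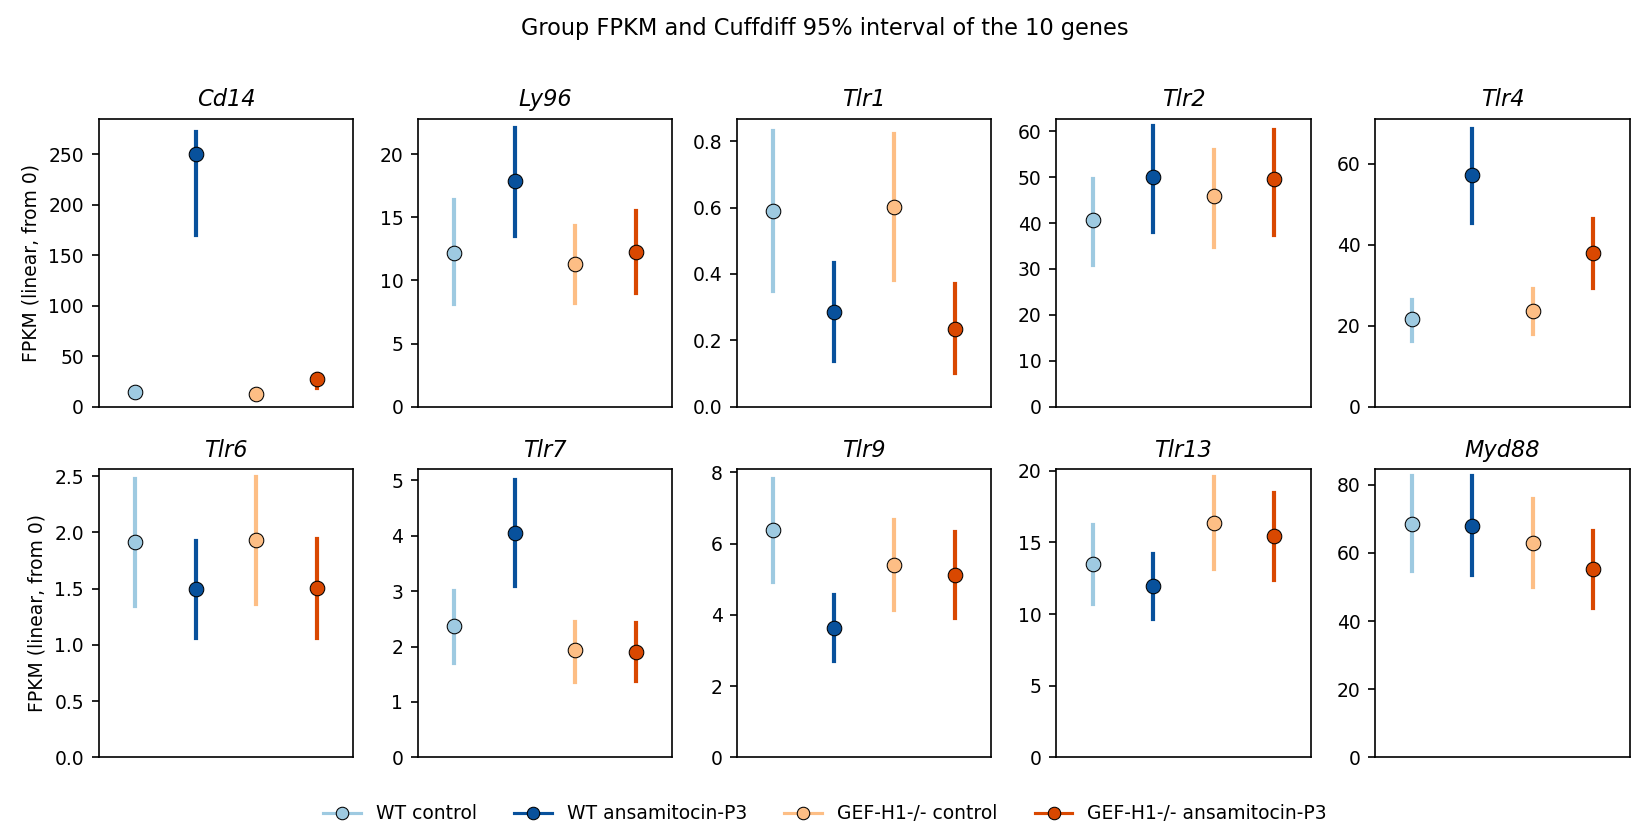
FPKM of each of the 10 genes (vertical axes, linear and starting at 0, with a scale of its own for each gene) in control and ansamitocin-P3-treated WT and GEF-H1-/- DCs. Points are the group FPKM and bars the 95% interval of Cuffdiff. *Cd14* reaches 250.1 FPKM in treated WT DCs and 27.3 FPKM or less in the other groups, *Tlr4* and *Tlr7* are highest and *Tlr9* lowest in treated WT DCs, and the 4 bars of *Tlr2*, *Tlr6*, *Tlr13*, *Ly96* and *Myd88* overlap.

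Of the LPS receptor genes, *Cd14* and *Tlr4* rose with the drug in WT DCs, and *Ly96* did not pass the threshold in either genotype. In WT DCs, 2 of the 9 genes rose past the threshold, *Cd14* and *Tlr4*, against 4.94% of all genes tested in either direction and 3.66% upward, and none fell. In GEF-H1-/- DCs, *Cd14* was the only 1 of the 9 past the threshold, against 1.08% of all genes, of which 0.807% upward. Over the 9 genes the log2 difference had a median of 0.29 in WT DCs and of -0.01 in GEF-H1-/- DCs, beside 0.001 and -0.009 over all genes tested. Between control DCs of the genotypes, 0 of the 9 genes were past the threshold against 1.88% of all genes. Their log2 differences ran from -0.23 to 0.26, and 0 had intervals apart, against 4.74% of all genes.

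**Figure D2:**
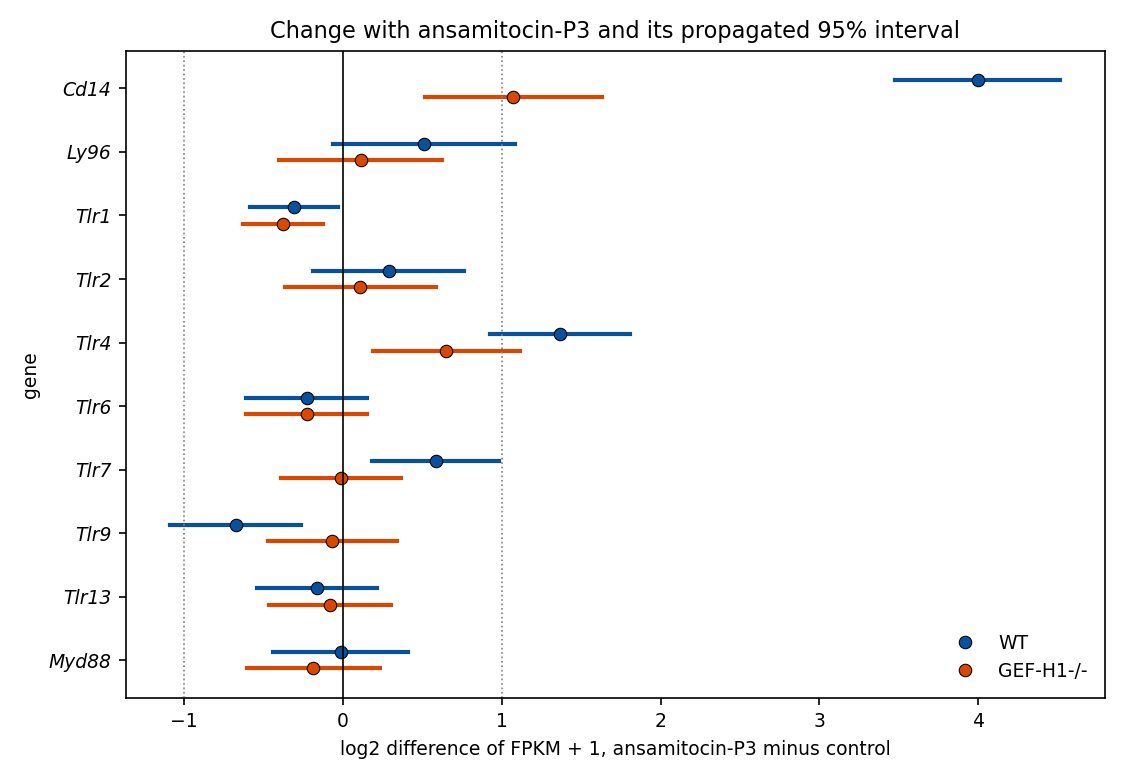
Difference between ansamitocin-P3-treated and control DCs on the log2(FPKM + 1) scale (horizontal axis) for each gene, in WT (blue) and GEF-H1-/- DCs (orange). Points are the differences, bars their 95% intervals propagated from Cuffdiff, and dotted lines the call at -1 and 1. *Cd14* lies past 1 in both genotypes with bars that do not meet, *Tlr4* lies past 1 in WT DCs and under it in GEF-H1-/- DCs, and *Tlr1*, at 0.601 FPKM or less in all groups, is shown although it failed the filter.

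*Cd14*, a gene of 2 exons on the minus strand of chromosome 18, was measured at 14.7 FPKM (10.0 to 18.0) in control WT DCs. In treated WT DCs it was at 250.1 FPKM (169.7 to 272). Control GEF-H1-/- DCs held 12.4 FPKM (8.29 to 15.2) and treated GEF-H1-/- DCs 27.3 FPKM (18.5 to 32.4). Treated WT DCs stood above all other groups, treated GEF-H1-/- DCs came next with an interval apart from both controls, narrowly so from control WT DCs, and the controls overlapped. The rise in WT DCs was 3.99 on the log2 scale (3.47 to 4.51), a 17.0-fold FPKM ratio. In GEF-H1-/- DCs it was 1.07 (0.52 to 1.63), or 2.20-fold, and this value came to 0.89, under the threshold, with a pseudocount of 5 FPKM. On the log2 scale the GEF-H1-/- rise was 26.9% of the WT rise, and the rises differed by 2.92 (2.16 to 3.68), with *Cd14* the only 1 of the 9 genes past the threshold in this difference, against 1.9% of all genes and 1.36% with the larger value in WT. Among treated DCs, WT held 9.16 times the FPKM of GEF-H1-/-, a log2 difference of -3.15 (-3.66 to -2.64) that made *Cd14* the only member past the threshold here, against 4.06% of all genes and 2.06% downward.

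Few genes of the table moved as far as *Cd14*. Ordered from the largest rise, it was number 14 of 11397 genes in WT DCs, number 85 in GEF-H1-/- DCs and number 25 in the difference between the genotypes. Without the 92 small RNA genes among them, it was number 2, 61 and 2 of 11305. None of the 1607 different 35-base stretches of its transcript, 35 bases being the read length, occurred without a mismatch in an annotated transcript of another gene.

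*Ly96* (chr1:16688456-16709605, plus strand, GRCm38, 5 exons) encodes MD-2, the protein that holds the lipid part of LPS against TLR4. Its levels were 12.2 FPKM (8.12 to 16.4) in control WT, 17.8 FPKM (13.5 to 22.1) in treated WT, 11.3 FPKM (8.22 to 14.3) in control GEF-H1-/- and 12.3 FPKM (9.02 to 15.5) in treated GEF-H1-/- DCs. Treated WT DCs had the highest value, and the intervals of all 4 groups overlapped. The log2 differences with the drug were 0.51 (-0.06 to 1.08) in WT and 0.11 (-0.40 to 0.63) in GEF-H1-/- DCs, and they differed by 0.40 (-0.37 to 1.17), an interval that includes 0.

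*Tlr4* (chr4:66827811-66842796, plus strand) has 3 or 4 exons depending on the transcript. It was measured at 21.6 FPKM (16.3 to 26.4) in control WT and 57.3 FPKM (45.5 to 68.6) in treated WT DCs. Control GEF-H1-/- DCs held 23.7 FPKM (18.0 to 29.1) and treated GEF-H1-/- DCs 37.9 FPKM (29.2 to 46.4). Within each genotype the treated group lay above the control with intervals apart, while the treated groups overlapped each other just at their ends. The WT rise was 1.37 (0.93 to 1.80), a 2.65-fold ratio that ranked 212 of 11397. The GEF-H1-/- difference of 0.65 (0.19 to 1.12), a ratio of 1.60, did not reach the threshold. It was 47.8% of the WT rise, and the difference between the genotypes was 0.71 (0.07 to 1.35), whose interval excludes 0 but which is under the threshold. With values and bounds rescaled to an equal total FPKM outside small RNA genes it was 0.52 (-0.12 to 1.16), an interval that includes 0, and the GEF-H1-/- groups then overlapped.

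The ratios among the LPS receptor genes differed between the groups. FPKM is corrected for length, so levels can be compared between genes. The *Cd14* to *Tlr4* ratio was 0.682 (0.467 to 0.997) in control WT, 4.37 (3.19 to 5.97) in treated WT, 0.524 (0.356 to 0.771) in control GEF-H1-/- and 0.721 (0.502 to 1.04) in treated GEF-H1-/- DCs. Treated WT DCs were thus the only group of the 4 in which *Cd14* was listed above *Tlr4*. The *Cd14* to *Ly96* ratio was 1.21 and 14.0 for control and treated WT, but 1.10 and 2.23 for control and treated GEF-H1-/- DCs. The *Tlr4* to *Ly96* ratio of the treated groups was 3.21 (2.33 to 4.42) in WT and 3.09 (2.16 to 4.41) in GEF-H1-/- DCs, against 1.77 (1.16 to 2.71) and 2.11 (1.46 to 3.04) in the controls, with all 4 intervals overlapping.

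*Tlr2* (chr3:83836272-83841608, minus strand), whose coding sequence lies in 1 of its 3 exons, was the TLR with the highest level in 3 of the 4 groups. It stood at 40.8 FPKM (30.8 to 49.7) in control WT, 50.1 FPKM (38.1 to 61.2) in treated WT, 45.9 FPKM (34.7 to 56.0) in control GEF-H1-/- and 49.7 FPKM (37.5 to 60.2) in treated GEF-H1-/- DCs. All 4 intervals overlapped, with log2 differences of 0.29 (-0.19 to 0.76) in WT and 0.11 (-0.36 to 0.59) in GEF-H1-/- DCs. The *Tlr4* to *Tlr2* ratio was 0.530 (0.378 to 0.744) in control WT and 1.14 (0.837 to 1.57) in treated WT DCs, intervals apart. Control and treated GEF-H1-/- DCs had ratios of 0.517 (0.368 to 0.725) and 0.762 (0.547 to 1.06), with overlapping intervals.

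The 250 bases before the start of *Tlr2* (chr3:83841609-83841858, minus strand, RefSeq on GRCm38.p6) are shown because *Tlr2* was the highest of the TLR genes with a promoter at hand, and capitals mark overlapping matches to the NF-kappaB consensus on both strands, which 7.25% of the 32851 promoters of this length hold.
Tlr2 promoter: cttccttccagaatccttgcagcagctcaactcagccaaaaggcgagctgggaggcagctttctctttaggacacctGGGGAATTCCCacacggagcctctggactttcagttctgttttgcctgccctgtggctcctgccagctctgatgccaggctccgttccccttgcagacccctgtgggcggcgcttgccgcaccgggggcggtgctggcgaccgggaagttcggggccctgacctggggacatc

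*Tlr6* and *Tlr1*, the partners of TLR2, lie next to each other on the minus strand of chromosome 5 (chr5:64953095-64960034 and chr5:64924680-64933558). *Tlr6* was at 1.92 FPKM (1.35 to 2.47) in control WT, 1.49 FPKM (1.06 to 1.93) in treated WT, 1.93 FPKM (1.36 to 2.49) in control GEF-H1-/- and 1.51 FPKM (1.06 to 1.94) in treated GEF-H1-/- DCs. The genotypes gave nearly the same values, with a log2 difference of -0.23 in each, and all intervals overlapped. *Tlr1* was lower still, at 0.591 FPKM (0.349 to 0.831) and 0.285 FPKM (0.136 to 0.432) in control and treated WT and 0.601 FPKM (0.382 to 0.820) and 0.235 FPKM (0.102 to 0.368) in control and treated GEF-H1-/- DCs. Its treated values lay under the control values in both genotypes, with intervals apart in GEF-H1-/- DCs. *Tlr2* was listed 21.3 times above *Tlr6* in control WT and 33.5 times in treated WT DCs, against 23.8 and 33.0 times in GEF-H1-/- DCs.

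*Tlr1* and *Tlr6* share identical sequence, and a read inside it does not by itself tell the genes apart, although its mate may. Of the different 35-base stretches of the *Tlr1* transcripts, 567 of 3086 (18.4%) also occur in *Tlr6*, and 571 of the 3709 of *Tlr6* (15.4%) occur in *Tlr1*. Their FPKM may therefore be less certain, that of the weaker *Tlr1* most of all, but how many fragments were ambiguous was not measured. The longest identical run in their coding sequences spans 229 bases, from base 1468 to 1696 of the 2385 of *Tlr1* and from 1507 to 1735 of the 2418 of *Tlr6*, and is given in lower case throughout since every base is shared.
Tlr1 and Tlr6 shared coding run: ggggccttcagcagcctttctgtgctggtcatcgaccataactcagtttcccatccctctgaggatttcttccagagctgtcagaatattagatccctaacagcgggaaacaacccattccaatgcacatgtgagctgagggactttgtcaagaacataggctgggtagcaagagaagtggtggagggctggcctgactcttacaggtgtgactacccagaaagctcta

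**Figure D3:**
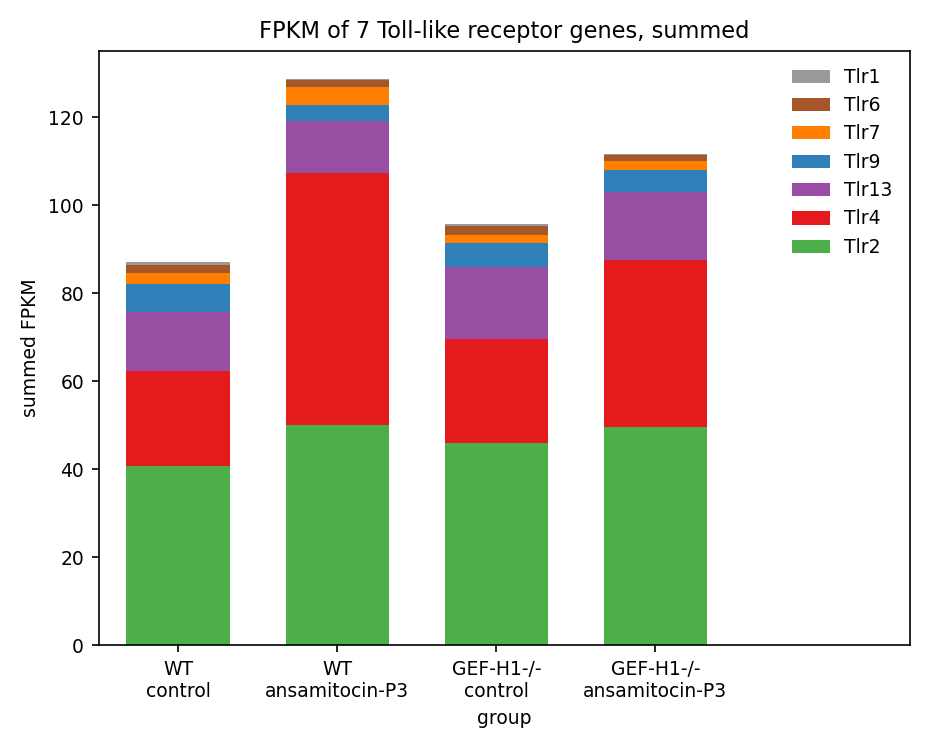
Summed FPKM (vertical axis, linear from 0) of the 7 TLR genes in control and ansamitocin-P3-treated WT and GEF-H1-/- DCs, stacked by gene. The stack is highest in treated WT DCs, at 128.7 FPKM against 87.1, 95.9 and 111.8 FPKM, and the *Tlr4* layer is the one that widens most.

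Summed over the 7 TLR genes, FPKM came to 87.1 in control and 128.7 in treated WT DCs. The sums were 95.9 and 111.8 FPKM for control and treated GEF-H1-/- DCs. *Tlr4* made up 24.8% of this sum in control and 44.5% in treated WT DCs, and 24.7% and 33.9% in control and treated GEF-H1-/- DCs. The share of *Tlr2* was smaller after treatment, 46.8% against 38.9% for WT DCs and 47.9% against 44.5% for GEF-H1-/- DCs. The sum of the endosomal *Tlr7*, *Tlr9* and *Tlr13* stayed within 19.6 to 23.7 FPKM in the 4 groups.

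Among the endosomal receptors, *Tlr7* was higher and *Tlr9* lower in treated than in control WT DCs with intervals apart, and neither passed the threshold. *Tlr7* (chrX:167304931-167330528, minus strand) senses RNA rich in guanosine and uridine. It was at 2.37 FPKM (1.70 to 3.0) in control WT and 4.05 FPKM (3.09 to 5.01) in treated WT DCs, with 1.93 FPKM (1.36 to 2.45) and 1.91 FPKM (1.38 to 2.42) in control and treated GEF-H1-/- DCs. Treated WT DCs lay apart from the other 3 groups, just so from control WT DCs, and those 3 overlapped. The log2 difference was 0.58 (0.19 to 0.98) in WT and -0.01 (-0.39 to 0.37) in GEF-H1-/- DCs. Among treated DCs, WT held 2.13 times the FPKM of GEF-H1-/-, a log2 difference of -0.80 (-1.18 to -0.42) that came to -1.05, past the threshold, with a pseudocount of 0.1 FPKM and to -0.39 with 5 FPKM. The WT difference of 0.58 was 0.30 with 5 FPKM.

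*Tlr9* (chr9:106222598-106226876, plus strand, 2 exons) senses unmethylated CpG DNA. It was measured at 6.38 FPKM (4.91 to 7.82) in control WT and 3.62 FPKM (2.69 to 4.54) in treated WT DCs, and at 5.40 FPKM (4.15 to 6.65) and 5.12 FPKM (3.91 to 6.33) in control and treated GEF-H1-/- DCs. Treated WT DCs had the lowest value, apart from control WT DCs but overlapping both GEF-H1-/- groups. The log2 difference was -0.67 (-1.09 to -0.26) in WT, a ratio of 0.568, and -0.06 (-0.47 to 0.34) without GEF-H1. Taken between the genotypes, these differed by -0.61 (-1.19 to -0.03) for *Tlr9* and by 0.60 (0.05 to 1.15) for *Tlr7*, both with intervals that exclude 0. Rescaled to an equal total FPKM the value of *Tlr7* was 0.44 (-0.11 to 0.99), and to the 75th percentile 0.54 (-0.01 to 1.09), both including 0, and control and treated WT DCs then overlapped. The value of *Tlr9* excluded 0 under both, at -0.76 and -0.67. With 5 FPKM as pseudocount these were 0.30 for *Tlr7* and -0.36 for *Tlr9*. The *Tlr9* to *Tlr7* ratio was 0.894 (0.626 to 1.28) in treated WT DCs and 2.69 (1.87 to 3.88), 2.80 (1.92 to 4.08) and 2.69 (1.86 to 3.89) in control WT, control GEF-H1-/- and treated GEF-H1-/- DCs, so that treated WT DCs stood apart from the rest.

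The 250 bases before the start of *Tlr9* (chr9:106222348-106222597, plus strand, RefSeq on GRCm38.p6) are given because *Tlr9* was the only member lower in treated WT DCs with intervals apart. Capitals mark GAGGAA, the core bound by the myeloid factor PU.1, found in 23.3% of promoters, and then TGACTCA, a match to the AP-1 motif TGANTCA, found in 6.75% of promoters.
Tlr9 promoter: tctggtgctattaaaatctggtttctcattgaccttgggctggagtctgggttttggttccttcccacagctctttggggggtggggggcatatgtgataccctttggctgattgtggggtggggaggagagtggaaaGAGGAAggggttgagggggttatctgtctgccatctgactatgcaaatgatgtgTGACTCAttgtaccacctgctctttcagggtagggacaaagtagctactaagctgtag

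Promoter entries matched 6 of the 10 genes, all but *Cd14*, *Ly96*, *Tlr4* and *Tlr7*. On both strands, TGACGTCA (the CRE, in 1.55% of promoters), TTGCNNAA (a C/EBP motif, in 9.56%) and the ISRE of interferon regulatory factors (in 2.98%) were searched as well. *Myd88* held an ISRE match, GAAAGCGAAA, 31 to 40 bases before its RefSeq start (window chr9:119340019-119340268, minus strand). The locus used for FPKM reaches into this window, and in GENCODE the gene extends to base 119341411, so that the match lies inside it. *Tlr6* held ISRE and C/EBP matches in its entry at chr5:64959167-64959416, which lies inside the locus given above. Its entry before that locus, at chr5:64960049-64960298, held no match. *Tlr1* held GAGGAA in its entry at chr5:64933559-64933808 and no match in that at chr5:64932700-64932949, and *Tlr13* held GAGGAA. A match describes the letters of the window and is not evidence of binding.

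*Tlr13* (chrX:106143275-106160493, plus strand), which senses bacterial ribosomal RNA, was the most abundant of the endosomal receptors. It stood at 13.5 FPKM (10.7 to 16.2) in control WT, 11.9 FPKM (9.66 to 14.2) in treated WT, 16.4 FPKM (13.1 to 19.6) in control GEF-H1-/- and 15.4 FPKM (12.4 to 18.5) in treated GEF-H1-/- DCs. All 4 intervals overlapped, and the log2 differences with the drug were -0.16 (-0.54 to 0.22) in WT and -0.08 (-0.46 to 0.30) in GEF-H1-/- DCs.

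*Myd88* (chr9:119335988-119340040, minus strand) had the highest level of the 10 genes in 3 of the 4 groups. Its values were 68.6 FPKM (54.6 to 82.6) in control WT, 68.0 FPKM (53.5 to 82.4) in treated WT, 63.0 FPKM (50.0 to 75.9) in control GEF-H1-/- and 55.3 FPKM (43.7 to 66.6) in treated GEF-H1-/- DCs. The groups overlapped throughout, with log2 differences of -0.01 (-0.44 to 0.41) and -0.18 (-0.60 to 0.24) in WT and GEF-H1-/- DCs. The gene overlaps *Acaa1a* on the opposite strand, with which 11.3% of its 35-base stretches are shared. The libraries kept strand, but whether the FPKM used it is not stated, so reads of the overlap may have counted for either gene. In GENCODE *Myd88* also overlaps *Slc22a14* on its own strand, although none of its 35-base stretches occurred in a transcript of that gene.

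With intervals apart as the description, 4 of the 9 genes stood out in WT DCs, *Cd14*, *Tlr4* and *Tlr7* upward and *Tlr9* downward, against 16.8% of all genes (9.19% upward and 7.58% downward). In GEF-H1-/- DCs these were *Cd14* and *Tlr4*, 2 of 9 against 3.7% of all genes, or 2.75% upward. Among treated DCs, *Cd14* and *Tlr7* were lower in GEF-H1-/- than in WT, 2 of 9 against 13.7%, or 6.73% downward. There the propagated interval also excluded 0 for *Tlr4*, at -0.58 (-1.02 to -0.15), and *Ly96*, at -0.51 (-0.998 to -0.016), whose group intervals overlapped. With an equal total FPKM both included 0, and the share of all genes under this rule was not counted. For the difference of the drug effects between the genotypes, the interval excluded 0 for *Cd14*, *Tlr4* and *Tlr7*, where the WT value lay above the GEF-H1-/- value, and for *Tlr9*, where WT DCs had the fall and lay below. This compares with 7.77% of all genes, 4.44% with WT above and 3.33% with WT below. With an equal total FPKM it held for *Cd14* and *Tlr9* but no longer for *Tlr4* and *Tlr7*. The treatment comparisons and the genotype comparisons share groups and are not independent of each other.

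The order of the genes within a group was much the same in the controls. In control WT DCs it ran from *Myd88* through *Tlr2*, *Tlr4*, *Cd14*, *Tlr13*, *Ly96*, *Tlr9*, *Tlr7* and *Tlr6* to *Tlr1*. Neighbours from *Tlr4* to *Ly96* and from *Tlr7* to *Tlr6* overlapped, while the other steps were apart. In control GEF-H1-/- DCs *Tlr13* came before *Cd14* and *Tlr6* before *Tlr7*, each swap within overlapping intervals. In treated WT DCs *Cd14* came first, apart from *Myd88*, and *Tlr4* was listed above *Tlr2* within overlapping intervals. In treated GEF-H1-/- DCs *Myd88*, *Tlr2*, *Tlr4* and *Cd14* followed in that order, each overlapping the next.

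**Figure D4:**
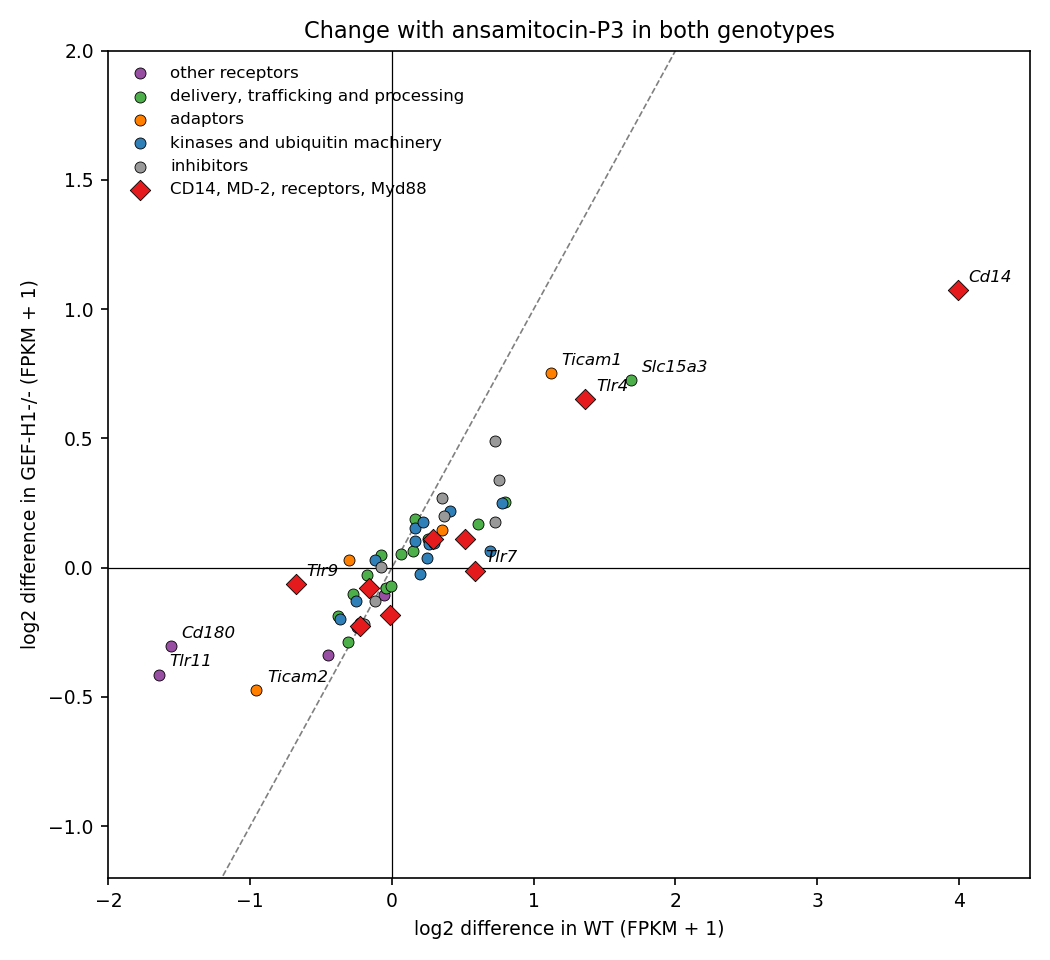
Log2(FPKM + 1) difference between ansamitocin-P3-treated and control DCs in WT (horizontal axis) and GEF-H1-/- (vertical axis, on another scale) for the 9 genes (red diamonds) and the 45 other genes of the TLR pathway that passed the filter (circles, coloured by list). The dashed line marks equal differences in the genotypes. *Cd14* lies far to the right, *Slc15a3*, *Tlr4* and *Ticam1* form the next group, and *Tlr11* and *Cd180* are farthest to the left.

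The rest of the pathway was described by 5 lists of 48 genes, of which 45 passed the filter. In WT DCs 2 of the 45 rose past the threshold and 2 fell, against 3.66% and 1.28% of all genes (4.94% in either direction). In GEF-H1-/- DCs 0 did, against 1.08% of all genes. *Slc15a3* and *Ticam1* were apart upward there, 2 of 45 against 2.75% of all genes. The median log2 difference of the 45 was 0.15 for WT DCs and 0.05 for GEF-H1-/- DCs, beside 0.001 and -0.009 over all genes. Among other receptors, 5 of 7 passed the filter, and 0 rose and 2 fell in WT DCs, against 1.28% of all genes that fell. These were *Tlr11*, which senses profilin, and *Cd180*, a TLR4-like surface receptor that lacks a TIR domain.

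*Cd180* was at 16.4 FPKM (12.9 to 19.8) in control WT and 4.91 FPKM (3.81 to 6.02) in treated WT DCs, and at 10.7 FPKM (8.38 to 13.1) and 8.50 FPKM (6.63 to 10.4) in control and treated GEF-H1-/- DCs. It fell by 1.56 on the log2 scale in WT DCs and differed by -0.30 in GEF-H1-/- DCs, and these values differed by -1.25 (-1.83 to -0.68), past the threshold. With *Tlr11*, also under -1 in this difference, these were 2 of the 45 pathway genes, against 1.9% of all genes in either direction. CD180 resembles TLR4 in sequence, and the *Tlr4* to *Cd180* ratio of control WT DCs was 1.32 (0.954 to 1.82) and that of treated WT DCs 11.7 (8.59 to 15.9). Control and treated GEF-H1-/- DCs gave 2.21 (1.59 to 3.07) and 4.46 (3.23 to 6.14). *Ly86* encodes MD-1, the partner of CD180 and the relative of MD-2. It did not pass the threshold with the drug, but was higher in GEF-H1-/- DCs, with 9.07 and 8.68 FPKM in control and treated WT against 28.5 and 26.4 FPKM in control and treated GEF-H1-/- DCs, log2 differences of 1.55 and 1.50. The *Ly96* to *Ly86* ratio was accordingly 1.35 (0.849 to 2.14) in control WT and 0.396 (0.271 to 0.579) in control GEF-H1-/- DCs.

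*Tlr11* went from 3.51 FPKM (2.60 to 4.39) to 0.442 FPKM (0.262 to 0.608) in WT DCs, a fall of 1.65 on the log2 scale, and from 1.80 FPKM (1.28 to 2.31) to 1.10 FPKM (0.760 to 1.44) in GEF-H1-/- DCs. *Tlr8*, the neighbour of *Tlr7* in function, was at 13.2, 9.36, 13.4 and 10.4 FPKM in control WT, treated WT, control GEF-H1-/- and treated GEF-H1-/- DCs, all intervals overlapping. *Tlr3* and *Tlr5* stayed under 0.3 FPKM in every group.

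Genes that deliver ligands or carry and process endosomal TLRs numbered 14, all past the filter, and 1 rose in WT DCs, against 3.66% of all genes. This was *Slc15a3*, a transporter of endosomes, at 79.1 FPKM in control and 257 FPKM in treated WT DCs and at 71.0 and 118.2 FPKM in GEF-H1-/- DCs, with log2 differences of 1.69 (1.29 to 2.08) and 0.73 (0.34 to 1.11). *Unc93b1*, the chaperone that brings TLR7, TLR9 and TLR13 to endosomes, was at 129.6, 99.5, 133.9 and 117.6 FPKM in control WT, treated WT, control GEF-H1-/- and treated GEF-H1-/- DCs, all overlapping. *Cd36*, a scavenger receptor that binds lipids, and *Ctsl*, a protease of endosomes, were apart upward in WT DCs with log2 differences of 0.80 (0.28 to 1.31) and 0.61 (0.18 to 1.03). With *Slc15a3*, 3 of 14 were apart upward, against 9.19% of all genes. Between controls, *Ctsl* and the related *Ctsb* were apart and higher in GEF-H1-/- DCs, by 0.63 and 0.59. This was 2 of 14, beside 4.74% of all genes apart in either direction.

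Of 5 adaptors other than MyD88, 4 passed the filter, 1 rose and 0 fell in WT DCs, against 3.66% and 1.28% of all genes. *Ticam1*, which encodes TRIF, the adaptor of the MyD88-independent arm of TLR4, was at 13.2 FPKM (10.6 to 15.9) in control and 29.9 FPKM (24.3 to 35.5) in treated WT DCs, and at 13.2 FPKM (10.4 to 16.0) and 22.9 FPKM (18.4 to 27.4) in GEF-H1-/- DCs. The log2 differences were 1.12 (0.74 to 1.50) and 0.75 (0.36 to 1.15), with intervals apart in both genotypes, and their difference of 0.37 (-0.18 to 0.91) includes 0. *Ticam2*, which encodes TRAM, the bridge from TLR4 to TRIF, stood at 9.47 and 4.40 FPKM in control and treated WT, and at 6.75 and 4.58 FPKM in control and treated GEF-H1-/- DCs, with log2 differences of -0.96 (-1.34 to -0.57) and -0.47 (-0.86 to -0.09). The *Ticam1* to *Ticam2* ratio was 1.40 (1.04 to 1.88) and 6.81 (5.07 to 9.13) in control and treated WT, and 1.95 (1.44 to 2.66) and 5.00 (3.70 to 6.77) in GEF-H1-/- DCs. *Tirap*, which brings MyD88 to the membrane for TLR2 and TLR4, differed by 0.36 (-0.02 to 0.73) in WT DCs. *Pik3ap1*, the adaptor BCAP, was apart between controls, at 31.0 FPKM in WT and 18.9 FPKM in GEF-H1-/- DCs.

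Among 13 kinase and ubiquitin genes that act below MyD88, 0 passed the threshold in WT DCs (4.94% of all genes did) and 0 without GEF-H1 (1.08% did). *Irak2* and *Peli2* were apart upward in WT DCs, 2 of 13 against 9.19% of all genes. *Irak2*, a kinase of the MyD88 complex, was at 15.7 and 26.1 FPKM in control and treated WT DCs and at 13.3 and 13.9 FPKM in GEF-H1-/- DCs, a difference between the genotypes of 0.63 (0.06 to 1.20). Of 9 inhibitors of TLR signalling 0 passed the threshold in either genotype, against the same 4.94% and 1.08%, with log2 differences in WT DCs from -0.22 to 0.76 (*Tollip*). *Tollip*, *Zc3h12a* and *Il1rl1* were apart upward and *Socs1* downward, against 9.19% and 7.58% of all genes, although the FPKM of *Socs1* in treated WT DCs, 155.9, lies outside its own interval of 93.4 to 148.7.

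To place the genes in the table, the genes nearest to each were sought among 8816 genes with at least 5 FPKM in a group. Euclidean distance was taken over 3 log2 differences from control WT DCs, those of treated WT, control GEF-H1-/- and treated GEF-H1-/- DCs. *Cd14* had few neighbours, with 1 gene within a distance of 0.5. This was *Sdcbp2* (0.362), at 1.48, 29.9, 1.03 and 3.33 FPKM in control WT, treated WT, control GEF-H1-/- and treated GEF-H1-/- DCs. The cytokine genes *Osm* (0.776) and *Il1b* (0.836), the pseudogene *Atp6v0c-ps2* (0.829) and the chemokine gene *Cxcl2* (1.30) followed. *Il1b* stood at 25.2, 242, 22.8 and 56.2 FPKM in the same order of groups, near the level of *Cd14* in treated WT DCs and above it in the other groups.

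*Tlr4* had 30 genes within 0.25, led by *Gp49a* (0.0696), *Dusp3* (0.0757) and *Ralgds* (0.0862). *Tlr7* had 150, led by *Fam110a*, *9430023L20Rik* and *Cnppd1*, and *Tlr9* had 221, led by *Slc25a16*, *Nov* and *Ccdc122*. The other members lay in dense parts of the table, with 524 genes (*Tlr1*), 700 (*Tlr13*), 718 (*Ly96*), 783 (*Tlr2*), 941 (*Myd88*) and 1233 (*Tlr6*) within 0.25. Their nearest genes were *Dpcd*, *Pdia5*, *Ubl3*, *Eif5b*, *Pigx* and *Itm2b* in that order of members.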

How the data were processed

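RNA from BMDCs was sequenced in 8 libraries, 2 for each of the 4 groups. Stranded libraries were made from poly(A) RNA and read from both ends, and the authors calculated FPKM in Cuffdiff (version 1.05, also named in the submitters' processing notes, with build mm10). In the deposited table, FPKM stand once for each gene in each group, beside a 95% interval and a status. The aligner and annotation of this table are not given in the sources used here. The WT columns carry no genotype in their names and were assigned by elimination, and the number of unused sample columns was 0. Cuffdiff had pooled the libraries, so the branch of the design without tests was used. Whether the libraries of a group came from separate mice is not stated, and FPKM keep no count, so the depth per library is unknown and precision is given by the intervals.

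Genes with a status other than OK (106 low data, 1 too many data) and those under 1 FPKM in every group were left out, leaving 11397. Differences were taken as log2(FPKM + 1) with a pseudocount of 1 FPKM, and SEs on that scale from the bounds as an interval of 95% (Python 3.11.15, numpy 2.4.6, pandas 2.3.3). Group totals of FPKM ranged from 594706 to 734144 and were not equalised, and intervals spanned 45.5% to 45.7% of FPKM at the median. Loci are from the file with starts raised by 1, transcripts from GENCODE and promoters from RefSeq.

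All 10 genes were named with every value. From the pathway lists, genes past the threshold, or of the same complex or step as a member, were named, and others apart between groups were named after their values were seen, as were the marker genes, motifs and ratios chosen. The 5 genes most like *Cd14* and the 3 most like each other member were sought. The members and lists were chosen with earlier results of these data known. Marker genes *Adgre1* and *Ly6g* and 1 erythroid gene were not analysed here. Markers of B cells (6.56 to 16.6 FPKM summed), T cells (12.9 to 21.2), NK cells (0.938 to 1.15), plasmacytoid DCs (87.0 to 116), mast cells and basophils (103 to 168) and erythroid cells (0.196 to 0.889) were summed too, and none was at 0 in all groups. Between controls, all 4 mast cell and basophil genes were higher in GEF-H1-/- DCs, with a median log2 difference of 0.70. All 4 T cell genes and all 4 B cell genes past the filter were lower there, with medians of -0.46 and -0.40. The median over all genes was -0.008. The part of these cells in the results was not tested.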

Additional observations from a re-analysis of the deposited data

Results flagged for a closer look

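*Tlr7* went in opposite directions with ansamitocin-P3 in the genotypes, by 0.58 on the log2 scale in WT DCs and by -0.012 in GEF-H1-/- DCs. Each genotype is represented by 1 pooled value per group, and the difference between them was not tested. The GEF-H1-/- value lies close to 0, its interval includes 0, and with the midpoint of the Cuffdiff interval in place of FPKM it was 0.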

How the results depend on the processing

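No paired analysis was possible because the table has 1 value per group, and leaving out each replicate was not run for the same reason. No called value changed sign under any alternative that was run. With a pseudocount of 0.1 FPKM, 2 members were past the threshold between treated genotypes (*Tlr7* joined *Cd14*), and with 5 FPKM 0 were in GEF-H1-/- DCs. A threshold of 0.5 gave 5 members in WT, 2 in GEF-H1-/-, 4 between treated genotypes and 4 in the difference of effects. The share of all genes past 0.5 was not counted, so these cannot be read as an excess. Counting intervals apart gave 4, 2, 2 and 4 members in that order, the last by propagated intervals that exclude 0. With intervals apart and values rescaled together, chosen after seeing the data, these counts were 3, 1, 2 and 3 at the 75th percentile and 3, 1, 4 and 2 at an equal total, where *Tlr7* (WT) and *Tlr4* (GEF-H1-/-) no longer stood apart and *Tlr9* and *Tlr13* did between treated genotypes. The share of all genes apart was not counted under these rescalings, so these counts cannot be read as an excess either. Rescaling to an equal total FPKM without small RNA genes put the median of all genes at -0.20 in WT and 0.19 between treated genotypes, a move of -0.21 and 0.22, and the members' medians there became 0.055 and -0.051. *Cd14* and *Tlr4* were still past the threshold in WT under it, at 3.76 and 1.13. Under it 273 of 643 genes called in WT were higher, against 417 of 563 as deposited and 339 of 578 rescaled to the 75th percentile. Between treated genotypes 408 of 540 were higher under it, against 228 of 463, and in the difference of effects 102 of 203 against 155 of 216. Over all genes, the 5 comparisons called 563, 123, 214, 463 and 216 genes (drug in WT, drug in GEF-H1-/-, controls, treated, difference of effects), 956, 212, 372, 801 and 387 with a pseudocount of 0.1, and 318, 77, 101, 206 and 123 with 5. Small uncalled values of *Tlr2*, *Tlr6* and *Myd88* changed sign under some rescalings, pseudocounts or the midpoint. Filters and the median ratio left the counts of members as they were. The intervals cover what Cuffdiff modelled, and the depth behind them is unknown.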
